A study of Mus musculus with 38 samples.

Results

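H3K4me1 domains of epidermal stem cells (EpdSCs) before SOX9 induction (D0) were compared with those after 2 weeks of induction (W2). The D0 list held 87287 domains and the W2 list 73415, so that 160702 of the 1006732 intervals called in the 14 lists of the series were compared. A domain was called gained when it stood in the W2 list and no D0 domain overlapped it by at least 1 bp, and lost when it stood in the D0 list and no W2 domain overlapped it. All other domains are called kept. By that rule 14670 W2 domains were gained and 28247 D0 domains were lost.

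Both groups came from male mice of the genotype K14rtTA; TRE-myc-Sox9, in which the Krt14 promoter drives a doxycycline (DOX) dependent activator in skin epithelium and the activator switches on MYC-tagged SOX9. Induced animals were injected with DOX at postnatal day 21 and then kept on DOX feed. D0 animals carry the same transgenes and were not induced. EpdSCs were sorted from skin as integrin α6-high, CD34-negative and Ly6A-high cells negative for CD31, CD45, CD117 and CD140a. Chromatin was digested with a high or a low amount of micrococcal nuclease and profiled by MINT-ChIP, a method that tags each sample's chromatin with a barcode and immunoprecipitates many samples in one tube. Of the 38 samples of the series, 6 bear on the comparison. Each time point has 2 replicates, the D0 replicates together in 2 libraries, W2 replicate 1 in 2 libraries that it shares with W12 (12 weeks of DOX), and W2 replicate 2 in 2 libraries of its own. The authors merged the replicates before they called domains, so that each time point is 1 list without a replicate check. No test between time points was possible, and the depth behind the lists is unknown. The ranges in brackets after shares are exact 95% intervals (Clopper-Pearson) and speak to counting error alone. A domain that a list lacks was not detectable at that depth, which is not absence of the mark. In sorted tissue, a change in the make-up of the cells and a change of the mark within each cell cannot be told apart. SOX9 induction, DOX itself, the time since postnatal day 21 and the layout of the libraries all differ between D0 and W2. Their parts cannot be told apart either, since neither list comes from animals given DOX without the Sox9 transgene.

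H3K4me1 is the monomethyl mark on lysine 4 of histone H3. It is laid down at enhancers, both those that are only primed and those that are active, and on the shoulders of active promoters, whereas H3K27ac marks the active subset of both. SOX9 is a transcription factor of the SOX family that hair follicle stem cells express and that adult EpdSCs lack, and GATA3, the p63 gene Trp63, KLF5 and AP1 factors are among the regulators that EpdSCs use. A pioneer factor such as SOX9 can bind sites in closed chromatin. The label was checked against marker genes. At D0 domains covered 43.9% of the windows of 14 basal keratinocyte markers (gene body with 50 kb on both sides), against 17.6% for 9 immune cell markers, 15.5% for 8 melanocyte markers, 13.3% for 8 endothelial markers, 11.1% for 10 fibroblast markers and 19.7% for all 21911 protein-coding genes. At W2 the values were 41.4% for basal keratinocyte markers and 16.7%, 18.5%, 11.0% and 7.54% for immune, melanocyte, endothelial and fibroblast markers. Structural genes of epidermal differentiation were covered as much at D0, with 44.0%, and epidermal identity regulators with 45.2%. Hair follicle regulators had 37.4% and hair follicle markers 27.8%. Coverage therefore does not tell basal from differentiating epidermal cells. The lists hold no measure of the transgene, so that induction itself could not be checked here. The window of endogenous Sox9 held 23.4 kb of domains at D0 and 32.0 kb at W2, with 1 gained and 2 lost domains.

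Examples of the sequence under gained and lost domains follow, all from GRCm38 and each the 200 bases around the summit of an H3K27ac peak. Capitals mark matches on either strand to the motifs counted further on. The SOX motif was read as CCATTGT, with CCTTTGT also accepted. The AP1 motif was TGACTCA. The GATA motif was AGATAA. The RUNX motif was TGTGGTT. The TBX motif was AGGTGTGA. The first set shows the 3 gained domains with the highest-scoring W2 peak wholly inside them and no D0 peak, and the 3 lost domains with the highest-scoring D0 peak inside them and no W2 peak.
Gained 1, chr14:31681638-31681837, plus strand: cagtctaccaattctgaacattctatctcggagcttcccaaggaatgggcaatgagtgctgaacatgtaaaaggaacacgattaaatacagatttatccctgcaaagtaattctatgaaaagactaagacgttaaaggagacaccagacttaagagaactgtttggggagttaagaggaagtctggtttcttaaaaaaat
Gained 2, chrX:85828786-85828985, plus strand: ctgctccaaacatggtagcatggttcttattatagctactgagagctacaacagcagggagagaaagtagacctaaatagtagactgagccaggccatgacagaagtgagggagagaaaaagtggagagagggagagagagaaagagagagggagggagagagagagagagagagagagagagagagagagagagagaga
Gained 3, chr4:116679391-116679590, plus strand: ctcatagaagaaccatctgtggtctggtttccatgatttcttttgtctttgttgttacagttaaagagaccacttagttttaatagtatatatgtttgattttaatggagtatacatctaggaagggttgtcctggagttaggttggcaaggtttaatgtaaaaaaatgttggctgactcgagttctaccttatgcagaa
Lost 1, chr8:21884464-21884663, plus strand: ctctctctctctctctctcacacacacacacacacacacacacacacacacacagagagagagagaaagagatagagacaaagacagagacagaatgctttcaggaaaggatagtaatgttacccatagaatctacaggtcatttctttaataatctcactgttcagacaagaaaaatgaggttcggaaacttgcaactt
Lost 2, chr4:138676045-138676244, plus strand: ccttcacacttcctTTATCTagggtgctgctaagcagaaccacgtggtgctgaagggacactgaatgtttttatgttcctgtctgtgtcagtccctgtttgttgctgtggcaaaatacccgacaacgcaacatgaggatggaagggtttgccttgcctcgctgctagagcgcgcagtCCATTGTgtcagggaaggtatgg
Lost 3, chr3:121171524-121171723, plus strand: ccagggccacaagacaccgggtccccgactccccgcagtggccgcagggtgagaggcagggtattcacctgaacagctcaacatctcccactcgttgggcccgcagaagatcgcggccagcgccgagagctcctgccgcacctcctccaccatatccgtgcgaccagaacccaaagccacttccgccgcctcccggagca
Gained 1 lay in a domain of 5800 bp at chr14:31679001-31684800, 37715 bp from the start of Hacl1 and between genes. Gained 2 lay in an intron, in a domain of 3600 bp at chrX:85826801-85830400, 39954 bp from the start of 5430427O19Rik. Gained 3 lay between genes at chr4:116677201-116680800, 4744 bp from the start of Prdx1. The W2 peaks in them had scores of 239, 223 and 207. Lost 1 lay in a domain of 6600 bp at chr8:21881201-21887800 over the start of the defensin gene Defb9, with a D0 peak score of 398. Lost 2 lay between genes at chr4:138673601-138677200, 37717 bp from the start of Vwa5b1, and Lost 3 at chr3:121170201-121172400 over the start of Rwdd3. All 6 domains overlapped a domain in the W1, W6 and W12 lists as well, so that each of the 3 lost ones was missing at W2 and present at every other time point. Among these 6 windows, Lost 2 alone held motif letters, 1 match of GATA and 1 of SOX.

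A second set shows 4 such windows at genes of the lists used below, where a W2-only peak lay in a gained domain or a D0-only peak in a lost one.
Cd34 (gained), chr1:194941084-194941283, plus strand: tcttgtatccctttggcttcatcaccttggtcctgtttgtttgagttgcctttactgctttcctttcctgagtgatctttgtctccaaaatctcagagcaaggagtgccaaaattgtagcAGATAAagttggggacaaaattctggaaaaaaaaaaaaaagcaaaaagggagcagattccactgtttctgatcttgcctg
Runx1 (gained), chr16:92725691-92725890, plus strand: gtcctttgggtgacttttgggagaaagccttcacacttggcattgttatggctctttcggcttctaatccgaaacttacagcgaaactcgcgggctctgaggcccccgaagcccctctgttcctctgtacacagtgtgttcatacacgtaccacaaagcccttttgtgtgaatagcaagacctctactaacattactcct
Klf5 (lost), chr14:99262093-99262292, plus strand: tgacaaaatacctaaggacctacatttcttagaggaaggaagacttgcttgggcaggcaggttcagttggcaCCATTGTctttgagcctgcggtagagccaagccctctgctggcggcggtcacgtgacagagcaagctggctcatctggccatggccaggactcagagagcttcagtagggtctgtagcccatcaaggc
Bmp4 (lost), chr14:46439639-46439838, plus strand: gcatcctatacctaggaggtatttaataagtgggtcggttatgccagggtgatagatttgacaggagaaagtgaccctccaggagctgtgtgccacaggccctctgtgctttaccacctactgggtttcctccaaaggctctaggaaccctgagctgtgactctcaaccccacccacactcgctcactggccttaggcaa
The Cd34 window lay in the first part of the gene, in an intron, within a gained domain of 10200 bp (chr1:194937801-194948000), and held 1 GATA match. The Runx1 window was intronic as well, in a gained domain of 4200 bp (chr16:92723601-92727800). The Klf5 window lay between genes, 36498 bp from the gene's start, in a lost domain of 7000 bp (chr14:99259001-99266000), and held 1 SOX match. The Bmp4 window lay 49070 bp from the gene's start, in an intron of another gene, in a lost domain of 12400 bp (chr14:46432601-46445000).

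Gained domains made up 20.0% of the W2 list (19.7% to 20.3%) and lost domains 32.4% of the D0 list (32.1% to 32.7%). The lists differ in length and in p-values, which depend on depth, with a median p-value of 2.58e-50 at D0 and 1.59e-25 at W2. With both lists cut to the same length by rank, 18635 domains were gained and 19521 lost, a ratio of lost to gained of 1.05 in place of 1.93. The excess of losses thus went with the longer D0 list. Lists of equal length with similar numbers of kept domains must give similar numbers of gained and lost ones. The cut therefore cannot say whether losses prevailed, and it does not make the depth of the lists equal. Gained and lost domains were both still found after it.

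Gained and lost domains were the narrow and weak part of their lists. Gained domains had a median width of 2000 bp (quartiles 1600 and 3000 bp) and lost domains of 1400 bp (quartiles 1000 and 2200 bp), against 3200 bp for kept W2 and 3000 bp for kept D0 domains. Of the D0 domains up to 1000 bp wide 65.3% were lost (64.4% to 66.1%), and of those of 8200 bp or more 1.01% were (0.792% to 1.28%). At W2 the share gained ran from 35.1% (33.6% to 36.6%) to 1.53% (1.25% to 1.86%) over the same widths. A p-value better than the median of its own list was found for 16.0% of gained and 18.6% of lost domains.

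Few of these calls hung on the 1 bp rule. Only 943 gained domains (6.43%) had a D0 domain within 1000 bp, and 2003 lost domains (7.09%) had a W2 domain as near. The median gap to the other list was 8800 bp for gained and 6600 bp for lost domains, and 2223 gained (15.2%) and 2122 lost domains (7.51%) lay over 50000 bp from any domain of the other list. On the other side of the rule, 163 kept D0 and 94 kept W2 domains met the other list by a single bin of 200 bp.

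The kept domains were reshaped as well. One-to-one pairs numbered 44013, which was 50.4% of the D0 and 60.0% of the W2 list. A further 3650 D0 domains were split into 8077 W2 domains, and 9004 D0 domains were fused into 4188 W2 domains. Split D0 domains were wide, with a median of 10300 bp, and became pieces of 3200 bp. Fused D0 domains had a median of 2600 bp and became W2 domains of 8000 bp. In 1059 further groups, 2373 D0 domains met 2467 W2 domains.

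By bases, 212 Mb were covered at both time points, 97.6 Mb at D0 only and 82.5 Mb at W2 only. The shared bases were 68.5% of the D0 and 72.0% of the W2 coverage. Whole lost domains held 49.5 Mb of the D0-only bases (50.7%), and trimmed parts of kept domains the other 48.1 Mb (49.3%). At W2, gained domains held 35.5 Mb of the new bases (43.0%) and extended parts of kept domains 47.0 Mb (57.0%). More newly covered bases therefore lay in extended parts of kept domains than in gained ones.

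Turnover was lowest over start sites and highest over 50000 bp from them. Distances were measured to 77161 annotated transcription start sites. Of D0 domains over a start site, 1654 of 15111 were lost, which is 10.9% (10.5% to 11.5%), against 41.6% (40.6% to 42.5%) of those over 50000 bp away. Gains ran from 4.78% (4.45% to 5.13%) to 35.3% (34.3% to 36.3%) between the same classes. Width also differed between these classes, and narrow domains were more often lost or gained, as given above. In one-to-one pairs, D0 domains over a start site had a median of 3800 bp, against 2600 bp over 50000 bp away. W2 domains of pairs, classed by their own distance, had 3600 and 2800 bp. The part of width in the distance pattern of turnover was not tested. Losses outnumbered gains in every class, most at 1 to 2500 bp with 2.77 lost domains per gained one and least over 50000 bp with 1.31. Gained domains lay farther out than lost ones, with a median distance of 20118 bp against 13811 bp and 7137 bp for kept D0 domains. By midpoint, 52.3% of gained and 50.8% of lost domains were intronic and 43.7% and 43.3% intergenic, against 56.7% and 35.5% of kept D0 domains.

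**Figure D1:**
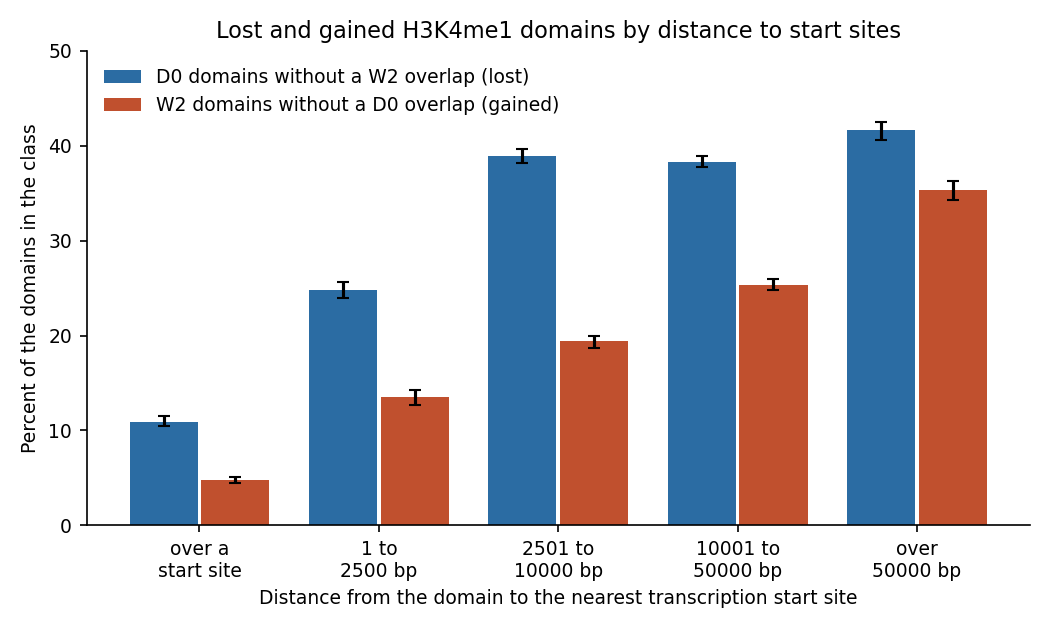
Percent of D0 domains lost (blue) and of W2 domains gained (red), by distance in bp from the domain to the nearest transcription start site, with exact 95% intervals that cover counting error only. Both shares are lowest over a start site, at 10.9% and 4.78%, and highest over 50000 bp away, at 41.6% and 35.3%. The classes were not matched for domain width.

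One-to-one pairs changed width in both directions about equally. Of the 44013 pairs, 46.3% were wider at W2 (45.9% to 46.8%), 44.9% were narrower (44.4% to 45.3%) and 8.81% were equal, with a median change of 0 bp and quartiles of -800 and 800 bp. At least a 2-fold widening was seen in 4728 pairs (10.7%) and at least a 2-fold narrowing in 3538 (8.04%).

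By distance, pairs over a start site were more often narrower and distal pairs more often wider at W2. Over a start site 39.9% were wider (39.0% to 40.9%) and 50.8% narrower (49.8% to 51.8%), with a median change of -200 bp. Over 50000 bp away 50.7% were wider (49.3% to 52.1%) and 41.6% narrower (40.3% to 43.0%), with a median of 200 bp. Where the W2 domain set the distance in place of the D0 domain, the shares wider were 45.3% (44.3% to 46.2%) over a start site and 50% (48.6% to 51.4%) over 50000 bp away, a smaller gap.

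D0 width moved with both. Pairs over a start site were wider at D0, with a median of 3800 bp against 2600 bp over 50000 bp away, and narrow D0 domains were more often wider at W2 in every distance class. At D0 widths up to 1600 bp, 70.4% of pairs over a start site (67.3% to 73.5%) and 78.1% of those over 50000 bp away (75.8% to 80.2%) were wider at W2. At 1800 to 3000 bp, 50.8% of pairs over a start site (49.0% to 52.7%) and 51.6% of those over 50000 bp away (49.2% to 53.9%) were wider at W2, and at 3200 to 5000 bp 34.6% (32.9% to 36.3%) and 34.0% (31.2% to 36.9%). From 5200 bp on, the shares were 27.2% (25.6% to 28.8%) and 24.1% (21.1% to 27.2%), so that distal pairs were more often wider beyond the intervals in the narrowest of the 4 width classes alone. In 3 classes of about equal size by the geometric mean of both widths, the order held. Among the narrowest pairs 42.2% of pairs over a start site (39.9% to 44.5%) and 54.2% of those over 50000 bp away (51.9% to 56.4%) were wider, and among the widest 38.7% (37.3% to 40.1%) and 45.3% (42.7% to 48.0%). The part of D0 width in the distance pattern was not tested further.

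Width change went with H3K27ac. Peaks were taken over the bases that both domains of a pair share, so that a wider domain had no more room for a peak. Of 3774 pairs with a W2 peak and no D0 peak, 61.3% were wider at W2 (59.8% to 62.9%), with a median change of 400 bp. Of 3342 pairs with a D0 peak and no W2 peak, 24.1% were wider (22.7% to 25.6%) and 69.2% narrower (67.6% to 70.7%), with a median of -600 bp. Pairs with no peak at either time were wider in 49.6% (49.0% to 50.2%) and pairs with a peak at both in 37.6% (36.6% to 38.6%). The order of the W2-only and D0-only pairs was the same in each of the 5 distance classes, and the gap between them was smallest within 2500 bp of a start site. The pairs also differed in D0 width, with a median of 4200 bp for D0-only and 3200 bp for W2-only peaks. The part of D0 width in the H3K27ac pattern was not tested.

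**Figure D2:**
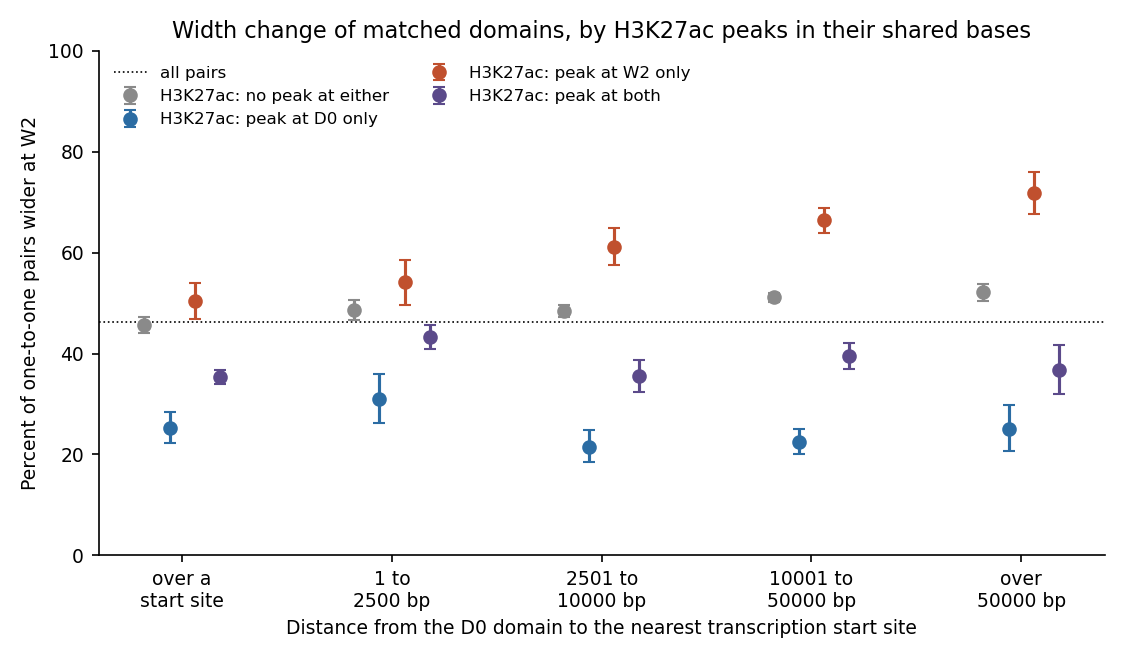
Percent of one-to-one pairs that were wider at W2, by distance in bp of the D0 domain to the nearest start site and by H3K27ac peaks in the bases shared by both domains, with exact 95% intervals that cover counting error only. The dotted line is the share over all pairs, 46.3%. Pairs with a W2-only peak lie highest and pairs with a D0-only peak lowest in each class.

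Among the 10 pairs with the extreme changes, Pdzrn3, an E3 ubiquitin ligase, held 2 of the 5 largest increases. In its body a domain of 600 bp at chr6:101293001-101293600 became one of 37600 bp at chr6:101261001-101298600, and one of 1600 bp became 25400 bp. The other increases were next to the start of Trabd2b (4000 to 30800 bp), over the start of Vasn (5800 to 21400 bp) and in the body of Nck2 (5400 to 20000 bp). The largest decreases were at Chmp3 (21200 to 5600 bp), between genes 272197 bp from the start of Gm5447 (18600 to 3000 bp), between genes 85983 bp from the start of Tslp (18000 to 2600 bp), in Slc24a3 (19400 to 4400 bp) and in Robo1 (16000 to 1200 bp).

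More gene starts lay inside a called domain at W2 only than at D0 only. At the 5′ end of protein-coding genes, 9393 of 21911 (42.9%) were inside a domain at both times, 1395 (6.37%) at D0 only and 2135 (9.74%) at W2 only. The gene starts covered at W2 only had an H3K27ac peak in 59.5% at D0 and 63.9% at W2. Those covered at D0 only had one in 21.9% and 23.3%, and those covered at both in 42.5% and 46.7%. Of the 4188 fused W2 domains 2054 (49.0%) covered a start site, and for 776 (18.5%) no start site lay in any of the D0 domains they joined. In those 776, an H3K27ac peak was present in 82.1% at D0 and in 85.3% at W2. The reverse, a split D0 domain over a start site that none of its W2 pieces covered, was found for 199 of 3650 (5.45%). Whether a called domain runs across a start site can depend on the depth of its list, which is unknown. The part of depth in these values was not tested.

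Gained and lost domains rarely carried H3K27ac. A W2 peak lay in 540 of 14670 gained domains, 3.68% (3.38% to 4.0%), and a D0 peak in 48, 0.327% (0.241% to 0.434%). Of the lost domains 987 of 28247 held a D0 peak, 3.49% (3.28% to 3.71%), and 473 still held a W2 peak, 1.67% (1.53% to 1.83%). Kept D0 domains held a D0 peak in 32.1% and a W2 peak in 33.6%. Kept domains were also wider and nearer to start sites, as given above. The part of width and distance in this gap was not tested. Peaks in lost domains were most frequent near start sites, where 10.3% (8.91% to 11.9%) of those over a start site had a D0 peak, 11.6% (10.4% to 12.8%) of those at 1 to 2500 bp and 1.88% (1.5% to 2.33%) of those over 50000 bp away. For gained domains the corresponding W2 shares were 7.55% (5.74% to 9.72%) and 3.21% (2.64% to 3.86%).

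Seen from the H3K27ac peaks, most peaks of 1 time point lay in kept domains, but they lay in gained or lost domains more often than peaks of both times did. Of 11647 W2 peaks with no D0 overlap, 10313 (88.5%) lay in a domain that D0 already had and W2 kept, and 561 (4.82%) in a gained domain. Of 11673 D0 peaks with no W2 overlap, 10100 (86.5%) overlapped a W2 domain that was kept, and 642 (5.50%) lay in a lost domain. Of 18595 D0 peaks with a W2 overlap, 95.4% lay in a kept D0 domain, 0.145% in a gained and 2.04% in a lost domain.

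The other time points showed which of these domains were seen again. Of gained domains 17.6% (16.9% to 18.2%) overlapped a domain at W1 (1 week), 38.0% (37.2% to 38.8%) at W6 and 32.6% (31.8% to 33.4%) at W12, and 51.5% (50.7% to 52.3%) none of these. Of lost domains 36.1% (35.5% to 36.6%) were in the W1 list, 37.1% (36.6% to 37.7%) in the W6 list and 32.5% (31.9% to 33.0%) in the W12 list, and 42.3% (41.7% to 42.9%) in none. Kept D0 domains were seen in 89.4%, 90.7% and 86.1%. W12 shares libraries with W2 replicate 1, and its cells came from skin grafted onto other mice.

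Gained domains with a W2 H3K27ac peak were seen far more often. They overlapped a W1 domain in 65.0% (60.8% to 69.0%), a W6 domain in 85.9% (82.7% to 88.7%) and a W12 domain in 78.0% (74.2% to 81.4%). Without a peak, the shares were 15.7% (15.1% to 16.4%), 36.2% (35.4% to 37.0%) and 30.9% (30.1% to 31.6%). Lost domains with a D0 peak were also seen more often later, in 64.4% at W1, 70.7% at W6 and 58.1% at W12, against 35.0%, 35.9% and 31.5% of those without. Width moved with these shares. At W1, 28.6% (28.0% to 29.3%) of lost domains up to 2000 bp wide and 83.1% (80.7% to 85.3%) of those over 4000 bp were found, and of gained domains 13.1% (12.4% to 13.9%) and 30.4% (28.1% to 32.9%). The part of width in the H3K27ac difference was not tested.

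**Figure D3:**
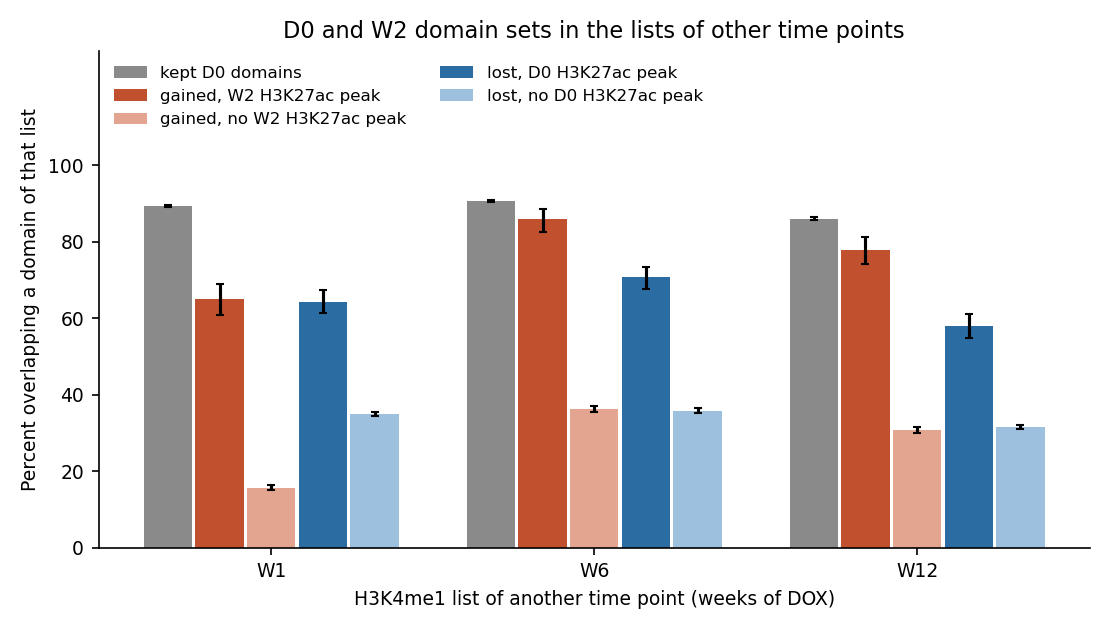
Percent of kept D0, gained and lost domains that overlap a domain of the W1, W6 or W12 list by at least 1 bp, with gained and lost domains divided by an H3K27ac peak at the time point that has them, and exact 95% intervals that cover counting error only. Gained domains with a W2 peak reach 65.0%, 85.9% and 78.0%, and those without 15.7%, 36.2% and 30.9%.

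By gene, windows of the body with 50 kb on both sides were searched. Several, meaning 3 or more, gained domains were found at 1857 of 21911 protein-coding genes, 8.48%, and several lost domains at 8007, 36.5%. Both applied to 909 genes, which is 48.9% of the first and 11.4% of the second group. Genes with more lost than gained domains numbered 13274 and those with more gained than lost 2697. Windows of genes with several gained domains were longer, with a median of 199 kb against 117 kb for all genes. With lists of equal length, several gained domains were found at 2724 and several lost ones at 4756 genes.

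Gpc6, a glypican that carries heparan sulfate at the cell surface, had the most gained domains. Its window around chr14:116925315-117976544 held 46 gained and 1 lost domain, and 165 kb were covered at W2 against 15.0 kb at D0. H3K27ac peaks numbered 6 at W2 and 0 at D0. The gained domains were 1000 to 7600 bp wide, 44 of them had their midpoint in the gene body, and 3 were also found at W1, 18 at W6 and 12 at W12. The balance of gained minus lost domains, 45, was 9 in the better-ranked 50% of both lists and 46 with lists of equal length.

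The next in number were Dennd1a, an activator of the small GTPase RAB35, with 25 gained domains, Adamtsl1 with 24, Gmds and Kcnma1 with 23 each, Kalrn and Zbtb20 with 22, and Atp8a2, Ptprg and Astn2 with 21. Gmds makes GDP-fucose precursors, Kcnma1 is a calcium-activated potassium channel and Zbtb20 a zinc finger transcription factor. Dennd1a covered 67.2 kb at D0 and 185 kb at W2, Atp8a2 33.8 and 158 kb, and Kcnma1 66.4 and 164 kb. Zbtb20 had 7 H3K27ac peaks at D0 and 23 at W2. Adamtsl1 differed from the rest in having 19 lost domains beside its 24 gained ones, and its balance turned to loss in the better-ranked 50% of both lists.

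Per length of window, gained domains were densest at Dnase2b (9 domains, 6.69 per 100 kb), Cmah (16 domains, 6.40), Tmprss5 (8 domains, 5.87), Cryge (6 domains, 5.85), Actbl2 (6 domains, 5.84) and Cd34 (7 domains, 5.72). Crb2, Dmap1, Nek6 and Srd5a2 followed with 5.70, 5.58, 5.47 and 5.35 per 100 kb. In the better-ranked 50% of both lists the balance of gained minus lost domains went from 8 to 0 at Tmprss5, from 5 to 0 at Cryge, from 9 to 1 at Dnase2b, from 8 to 1 at Nek6, from 15 to 6 at Cmah and from 7 to 4 at Cd34. With flanks of 10 kb it was 0 at Actbl2 and Crb2. Cmah, which hydroxylates sialic acid, covered 7.20 kb at D0 and 78.4 kb at W2. Crb2 adjoins Dennd1a, and the same gained domain of 14800 bp counted for both.

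Losses were most numerous in very long annotated windows. Gm20388 (90 lost domains) and Fgfr2 (71) have annotated bodies that run across many other genes, with windows of 4535 and 3061 kb, so that these counts do not belong to one gene. Macrod2 had 50 lost domains in a window of 2098 kb. In shorter windows, Robo1, a receptor of the guidance cue SLIT, lost 42 domains and gained 1, with 164 kb covered at D0 and 50.5 kb at W2.

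Sox6 encodes another SOX family factor, and its window of 668 kb around chr7:115470872-116038796 held 39 lost and 0 gained domains. It was covered over 267 kb at D0 and 65.0 kb at W2, and H3K27ac peaks went from 12 to 4. Of the 39 lost domains 34 had their midpoint in the gene body, the widest was 10200 bp (chr7:115623001-115633200), and 21 were in the list at W1, 5 at W6 and 8 at W12. Rora, an orphan nuclear receptor, had 34 lost and 3 gained domains and went from 314 to 158 kb, with 22 H3K27ac peaks at D0 and 8 at W2. Cfap299 had 34 lost and 0 gained domains, and Dlg2, Pde4d and Lrmda lost 38, 37 and 34. Pde4d, a cAMP phosphodiesterase, had more H3K27ac peaks at W2 (16) than at D0 (10) despite its losses.

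The densest losses were at Zfp819 (11 domains, 9.90 per 100 kb), Cyp11b2 (10 domains, 9.50), Mettl7a3 (10 domains, 9.48), Uap1 (12 domains, 9.02) and Pla2g4e (16 domains, 8.94). Defb10, Nhlh2, Dynlrb2, C1ra and Iqca followed with 8.73, 8.54, 8.11, 8.11 and 8.05 per 100 kb. Uap1, an enzyme of UDP-GlcNAc synthesis, went from 41.8 to 7.0 kb, and Pla2g4e, a phospholipase, from 93.6 to 36.2 kb. Defb10 is a defensin and C1ra a complement protease.

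For the gene lists, the share of all genes with several gained (8.48%) or lost domains (36.5%) is the background. Longer windows can hold more domains. The median window ran from 105 kb (housekeeping genes) to 241 kb (RUNX genes), with 162 kb for hair follicle regulators and 117 kb over all genes. At D0 domains covered from 11.1% (fibroblast markers) to 47.7% (AP1 genes) of the windows, against 19.7% over all genes. The background was matched for neither, so that a share above it is not an enrichment. Windows of neighbours such as Krt1 and Krt77 overlap and share domains.

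Regulators and markers of hair follicle stem cells and hair buds stood on both sides. Among 18 regulators 6 had several gained and 9 several lost domains (33.3% and 50%), and among 18 markers 7 and 5 (38.9% and 27.8%). The median of gained minus lost was 0 in both lists, against -1 over all genes. Covered length went from 1552 kb to 1906 kb over the regulators and from 719 to 817 kb over the markers.

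Lgr5, a receptor for R-spondin and stem cell marker, had 10 gained and 0 lost domains and went from 18.8 to 70.8 kb. Its gained domains were 1000 to 4200 bp wide and ran from chr10:115418001 to chr10:115616200. Of the 10, 0 were found at W1, 1 at W6 and 3 at W12, and none held an H3K27ac peak. Cd34, a sialomucin of the hair follicle bulge and a marker against which these cells were sorted, had 7 gained and 0 lost domains and went from 7.60 to 38.4 kb. The gained domain that covered its start and the sequence shown above was also in the W6 and W12 lists, and H3K27ac peaks in the window numbered 0 at D0 and 3 at W2.

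Itga8, an integrin gene, had 9 gained and 2 lost domains, a balance that turned to -1 in the better-ranked 50% of both lists. Its ligand gene Npnt had 6 and 5. Among the regulators, the repressor Foxp1 had 11 gained and 6 lost domains (187 to 324 kb), Tbx1 3 and 0 (40.4 to 70.6 kb) and Tcf7l1, the TCF3 repressor of Wnt targets, 6 and 4 (85.6 to 168 kb), which turned to a balance of -3 when domains under 1000 bp apart were joined. Runx1 had 5 gained and 5 lost domains and went from 119.5 to 151 kb. Lost domains prevailed at Nfia (2 gained, 17 lost, 206 to 130.2 kb), Lef1 (3 and 8), Sox21 (1 and 6), Bmp4 (0 and 4, 43.7 to 17.6 kb), Tgm5 (0 and 4) and Wnt10b (0 and 3). The balance turned to 1 at Sox21 with flanks of 10 kb and to 1 at Wnt10b and Nfib in the better-ranked 50%. Nfia and its relative Nfib, both factors of hair follicle stem cells, differed in covered length, since Nfib went from 277 to 308 kb with 3 gained and 5 lost domains.

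In the epidermal lists, genes with more lost than gained domains prevailed, as they did over all genes, of which 13274 of 21911 had more lost and 2697 more gained ones. The medians of gained minus lost were -2 for differentiation, -2 for identity and -1.5 for basal genes, and -2 for housekeeping, immune and fibroblast genes. The ratio of covered length at W2 to D0 was 0.762, 0.892 and 0.944 in the epidermal lists and 0.911 over all genes. Of 18 structural genes of differentiation, 1 had several gained and 8 several lost domains (5.56% and 44.4%). Less covered length at W2 was found at 17 of the 18, in all 687 kb against 901 kb. Of all 21911 genes, 12505 had less and 6260 more, and 9 of 10 housekeeping genes had less. Krt1 and Krt77, keratins of the suprabasal layers, went from 65.4 to 32.4 kb and from 66.3 to 30.4 kb, with 3 and 5 lost and 0 gained domains. Their widest lost domain was 5000 bp (chr15:101809401-101814400) and was in the lists at W1 and W6 and not at W12. Krt1 had 4 H3K27ac peaks at D0 and 0 at W2. Krt10, the partner of Krt1, went from 50.2 to 32.0 kb with 3 lost domains. Cldn1 of tight junctions, Dsc1 of desmosomes and the transglutaminase gene Tgm1 had 4 lost domains each. The most on the other side were Lce1a1 (2 gained, 0 lost, with a balance of -1 in the better-ranked 50%), Sbsn (0 and 0) and Lor (3 and 3), the one gene of the list with more covered length at W2 (32.8 against 24.6 kb).

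Of 23 epidermal identity regulators, 1 had several gained and 12 several lost domains (4.35% and 52.2%). Less covered length was found at 18 of them, against 12505 of 21911 over all genes. Klf5 had 9 lost and 0 gained domains (52.0 to 29.2 kb), Tfap2c 5 and 0 (57.8 to 34.2 kb) and Grhl1 5 and 0 (73.4 to 63.4 kb). Gata3 had 3 lost and 0 gained domains. Prdm1, the BLIMP1 repressor, was the one with several gained domains (4 gained, 3 lost, 33.6 to 58.6 kb, with a balance of -1 at flanks of 10 kb), and Cebpb (1 and 0) and Trp63 (1 and 1) were next. Of 14 basal keratinocyte markers 2 had several gained and 6 several lost domains (14.3% and 42.9%). The integrin gene Itga6, by whose product the cells were sorted, had 8 lost and 1 gained domain, the laminin gene Lama3 had 5 lost and 1 gained, and Krt5 (1 gained, 0 lost), Cdh3 (1 and 0) and Trp63 stood at the other end. Krt14, whose promoter drives the transgene, kept its coverage, with 53.8 kb at D0 and 54.8 kb at W2.

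Hedgehog genes act in hair buds and basal cell carcinoma. Of 14, several gained domains were found at 5 and several lost at 6 (35.7% and 42.9%). The transcription factors Gli2 (10 gained, 2 lost, 94.2 to 202 kb) and Gli3 (8 and 4, 104 to 134 kb) and the receptor Ptch1 (2 and 0) had more gained than lost domains, whereas the third factor of the family, Gli1, had 0 and 1 (32.0 to 27 kb). The ligand release gene Disp1 (2 gained, 9 lost), the signal transducer Smo (0 and 4) and the inhibitor Sufu (0 and 4) had more lost ones. The co-receptor genes differed among themselves, with 3 gained and 6 lost domains at Cdon, 3 and 1 at Gas1 and 0 and 0 at Boc. In the better-ranked 50% of both lists the balance was 0 at Gli3, Ptch1 and Sufu and 2 at Gli2. Gli2 had 6 H3K27ac peaks at D0 and 15 at W2. Its widest gained domain, of 10600 bp in an intron at chr1:118899801-118910400, was in the W1 and W6 lists.

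Of 26 Wnt and TCF genes 6 had several gained and 8 several lost domains (23.1% and 30.8%), with 11 genes on each side of the balance. The co-receptor Lrp6 had 11 gained and 1 lost domain, Lgr5 was as above, and the feedback inhibitor Nkd1 had 6 and 1 (a balance of -1 in the better-ranked 50%). Axin2, another feedback inhibitor, had 6 lost and 0 gained domains, Lef1 8 and 3, and the ligand gene Wnt7b 5 and 0 (109 to 71.3 kb). Among the 4 RUNX genes, Cbfb, the common partner subunit, had 4 gained and 0 lost domains, Runx3 had 3 and 1, and Runx2 had 2 and 10. Of the 10 AP1 genes 0 had more gained than lost domains and 9 had more lost ones, the same counts as for the 10 housekeeping genes.

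In the EGF list of 14 genes, 3 had several gained and 7 several lost domains (21.4% and 50%). The ligand genes Nrg1 (17 gained, 6 lost, 60.2 to 116 kb) and Tgfa (4 and 0) were on one side and Areg (1 and 6), Ereg (0 and 3) and the receptor gene Erbb3 (0 and 4) on the other, with Egfr at 2 and 2. In the TGF-β list of 16 genes, several gained domains were found at 4 and several lost at 11 (25.0% and 68.8%). Ltbp1, which stores the ligand in the matrix, had 12 gained and 3 lost domains. The receptor genes Tgfbr3 (0 and 6) and Tgfbr2 (1 and 5, 88.0 to 47.6 kb) were lowest, followed by the repressor gene Skil (1 and 4) and the receptor gene Tgfbr1 (2 and 5) with the same balance, and Tgif1 and Tgfb3 were level. Of 17 genes of epithelial-mesenchymal transition and invasion, 5 had several gained and 4 several lost domains (29.4% and 23.5%). Zeb1 (3 gained, 0 lost), Tnc (4 and 1, a balance of -1 in the better-ranked 50%) and Zeb2 (5 and 3) were highest and Fn1 (0 and 7), Cdh1 (0 and 2) and Snai2 (0 and 2) lowest.

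Lists of other cell types and of housekeeping genes are given for comparison. Several gained and several lost domains were found at 3 and 4 of 8 melanocyte markers, 0 and 5 of 9 immune markers, 1 and 3 of 10 fibroblast markers, 1 and 3 of 8 endothelial markers and 0 and 4 of 10 housekeeping genes. The melanocyte regulator Mitf had 10 gained and 6 lost domains and Sox10 4 and 0. The endothelial receptor gene Flt1 had 11 lost and 0 gained domains, and the fibroblast gene Dpt 8 and 0. Of the housekeeping genes 9 had more lost than gained domains. The part of other cells in these values was not tested.

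**Figure D4:**
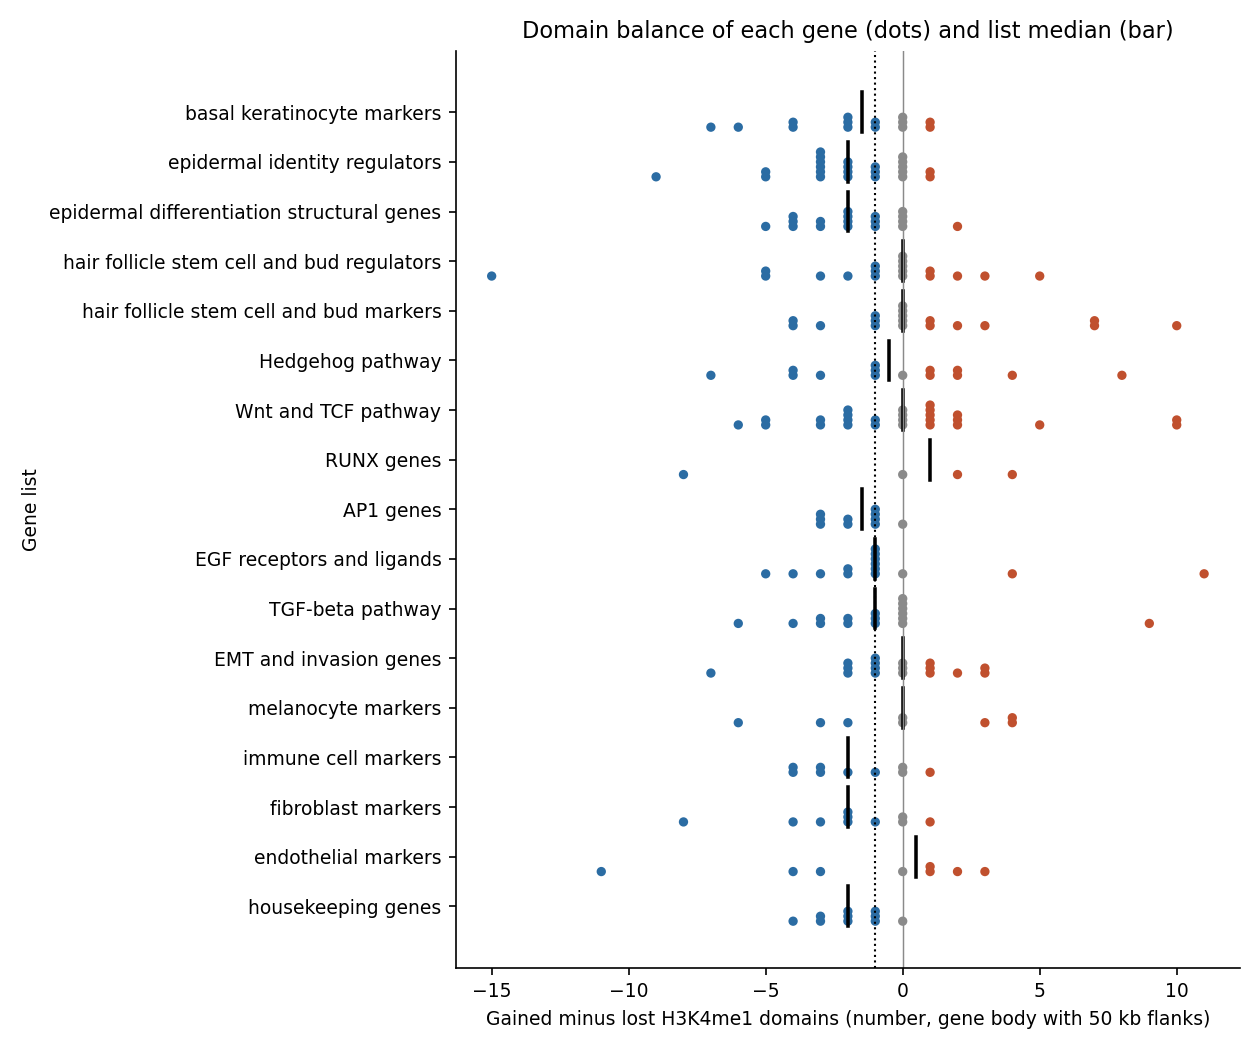
Gained minus lost H3K4me1 domains of each gene (dots, red above 0, blue below 0, grey at 0) in its body with 50 kb flanks, by gene list, with the list median as a black bar and the median over all protein-coding genes, -1, as a dotted line. Lgr5 and Lrp6 at 10 and Nrg1 at 11 are farthest right, and Nfia at -15 and Flt1 at -11 farthest left.

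Chromosome X stood apart in losses. Of its 2041 D0 domains 1103 were lost, 54.0% (51.9% to 56.2%), against 29.1% to 33.9% on the autosomes, and its covered length went from 5.44 to 3.87 Mb, a ratio of 0.712 against 0.892 to 1.02. Its share of gained domains, 20.6% (18.4% to 23.0%), lay within the 14.3% to 25.9% of the autosomes. The number of X domains was 1275 at W1, 1697 at W6 and 1144 at W12. Without X and Y, 14424 domains were gained and 27137 lost.

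SOX letters were more frequent in gained domains. In the middle 1000 bp of a domain they occurred 0.481 times per kb in gained, 0.351 times in lost and 0.363 times in one-to-one matched domains. A match was present in 38.3% of gained (37.5% to 39.1%), 29.6% of lost (29.1% to 30.1%) and 30.2% of matched domains (29.7% to 30.6%). GC content was 44.1%, 44.6% and 46.8%, so that gained and lost domains were alike in it. GATA letters were most frequent in lost domains, with 0.768 per kb against 0.665 in gained and 0.622 in matched domains, and AP1 letters as well, with 0.284 against 0.242 and 0.263. RUNX letters were at 0.261 per kb in gained, 0.239 in lost and 0.236 in matched domains. TBX letters, which the study used for comparison, were at 0.0466, 0.0530 and 0.0520.

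SOX letters were also most frequent in gained domains around H3K27ac summits. In 400 bp around 561 W2-only peaks in gained domains SOX letters stood at 0.544 per kb, against 0.335 around 642 D0-only peaks in lost domains and 0.295 around 10232 peaks of both times in matched domains, which were richer in GC (55.0% against 44.5% and 47.5%). Matched domains showed 0.424 around W2-only and 0.341 around D0-only peaks, the latter close to the 0.335 around D0-only peaks in lost domains. At W2-only peaks a match was present in 18.9% of windows in gained domains (15.7% to 22.4%). In matched domains it was present in 15.4% (14.5% to 16.4%), so that these intervals overlap. Letters alone are a description and show no binding. The windows with the most SOX letters in gained domains and the most GATA letters in lost domains, chosen after these values were seen, are given as examples.
Gained, SOX letters 1, chr8:6011188-6011387, plus strand: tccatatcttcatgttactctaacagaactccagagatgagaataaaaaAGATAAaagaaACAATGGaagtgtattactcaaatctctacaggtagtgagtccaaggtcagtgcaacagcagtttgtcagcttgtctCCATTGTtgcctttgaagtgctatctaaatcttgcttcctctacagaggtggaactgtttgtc
Gained, SOX letters 2, chr13:47562800-47562999, plus strand: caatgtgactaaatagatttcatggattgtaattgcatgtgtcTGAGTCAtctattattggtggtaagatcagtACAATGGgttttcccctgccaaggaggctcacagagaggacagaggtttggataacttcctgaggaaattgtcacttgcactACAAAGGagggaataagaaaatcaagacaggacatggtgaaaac
Lost, GATA letters 1, chr6:112618560-112618759, plus strand: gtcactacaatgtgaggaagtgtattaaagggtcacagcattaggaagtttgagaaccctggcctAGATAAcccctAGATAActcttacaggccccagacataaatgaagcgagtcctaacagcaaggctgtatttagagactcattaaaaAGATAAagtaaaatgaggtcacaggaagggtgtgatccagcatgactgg
Lost, GATA letters 2, chr14:72974943-72975142, plus strand: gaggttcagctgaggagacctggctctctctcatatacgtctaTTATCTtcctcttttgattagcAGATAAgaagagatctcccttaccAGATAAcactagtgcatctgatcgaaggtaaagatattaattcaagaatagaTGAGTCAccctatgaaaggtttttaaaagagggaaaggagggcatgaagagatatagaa
The first 2 lay between genes, in gained domains at chr8:6008801-6012400 and chr13:47561201-47564200, with 2 SOX matches each and 1 match of GATA or AP1. The last 2 lay between genes in lost domains at chr6:112617601-112619200 and chr14:72974401-72976400, with 3 GATA matches each, the second also with 1 AP1 match.

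**Figure D5:**
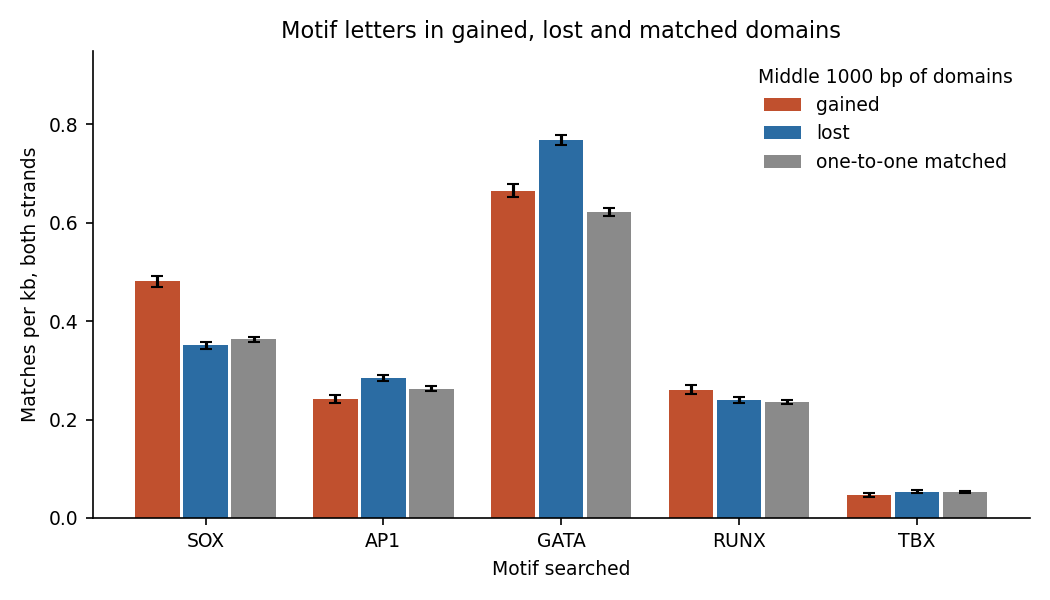
Matches per kb of 5 sets of motif letters, on both strands, in the middle 1000 bp of gained (red), lost (blue) and one-to-one matched (grey, D0 side) domains, with 95% Poisson intervals that cover counting error only. SOX letters are highest in gained domains at 0.481 per kb, and GATA letters in lost domains at 0.768 per kb. Windows reach beyond domains narrower than 1000 bp.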

How the data were processed

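Per the labels and the study's methods, the authors trimmed reads with Skewer, aligned them to GRCm38/mm10 (Bowtie2 2.2.9), removed duplicates with Picard, merged replicates (SAMtools 1.9) and called H3K4me1 domains with epic2, whereas the submitters' processing notes list SICER 0.0.36. Caller settings and controls are not given in the sources used here. Each domain in the deposited H3K4me1 lists comes with a p-value. The deposited H3K27ac lists (MACS2 2.1.1) hold a score and a summit for each peak. Domains lie on bins of 200 bp, and gaps of up to 600 bp were already joined. The p-value served to rank domains within a list, since its scale depends on depth.

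Overlaps, distances and counts were computed with Python 3 (NumPy, pandas and SciPy) on chromosomes 1 to 19, X and Y, after 2 mitochondrial intervals per list were set aside. Genes and start sites came from the basic set of GENCODE M21, and sequences from RefSeq's GRCm38.p6. Positions count from 1. Exon, intron or intergenic was read at a domain's midpoint. Functions were tested on simulated lists. Members, gene lists and rules were chosen with earlier results of these data known. Named genes were the 10 with the most gained and lost domains, the 10 with the most per 100 kb among those with 4 or more (skipping a gene when at least 50% of its domains had been counted), the 3 highest and 3 lowest of each list over 10 genes, and list members with 3 or more. Some results under this rule are not reported here. The example windows at Cd34, Runx1, Klf5 and Bmp4 were chosen after the values were seen, and Sox9, Krt14, Pdzrn3 and others outside the rule are given for context. The marker Trbc2 had no protein-coding match. Without replicate lists no test was run. Alternatives were another overlap, stricter or equal lists, joining, no X and Y, other flanks and counts, other start sites, summed widths, stronger H3K27ac peaks and shorter motif windows.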

Additional observations from a re-analysis of the deposited data

How the results depend on the processing

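No paired analysis was possible because the replicates were merged before domains were called and no result comes from a test. The cause of the changes below was not tested unless given. Of 55 values of 9 results under the alternatives, 31 stayed close to the value given and 24 moved. A reversal was defined for the ratio of lost to gained domains alone, and losses outnumbered gains under each alternative applied to it. Apart from the cut to one length, none of these evened out the lengths of the lists. They therefore cannot say whether losses prevailed, and neither can that cut, as given above. With both lists cut to one length the ratio of lost to gained domains was 1.05, several lost domains were found at 4756 genes, 47.4% of pairs over 50 kb from a start site were wider at W2, and 4.30% of gained and 4.76% of lost domains held H3K27ac. With the better-ranked 50% of each list, 7287 domains were gained and 14512 lost (ratio 1.99), several gained and lost domains were found at 825 and 3502 genes, 38% of pairs over a start site and 46.3% of distal ones were wider, and 21.8% of gained and 17.4% of lost domains held H3K27ac, since a domain then counts as gained when its counterpart is in the weaker part of the other list. An overlap of 50% of the shorter domain gave 4.04% of lost domains with H3K27ac, and leaving out X and Y a ratio of 1.88. Flanks of 10 kb gave 878 and 2429 genes with several gained and lost domains, and 5 or more as several 589 and 2816. Against summed W2 width, 45.1% of kept D0 domains over a start site and 56.2% of distal ones were wider. With the stronger H3K27ac peaks 1.22% of gained and 1.6% of lost domains held one.

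Gained minus lost domains of 168 named genes depended on the setting. With the better-ranked 50% of each list 40 stayed within 1.5 times, 116 moved further without changing sign and 12 changed sign, with lists of one length 88, 72 and 8, and with flanks of 10 kb 71, 93 and 4. In all, 24 genes changed sign at least once. With the better-ranked 50% it was -9 at Adamtsl1, 3 at Lamb3, 2 at B2m and Erbb4, 1 at Batf, Nfib, Ptprc and Wnt10b and -1 at Itga8, Lce1a1, Nkd1 and Tnc. With lists of one length it was 1 at Barx2, Btc, Lamb3, Lrp5 and Smad7 and 2 at Egf, Erg and Itgam. Joining gave -3 at Tcf7l1, and flanks of 10 kb gave 1 at Cdon, Smad2 and Sox21 and -1 at Prdm1. Of 15 motif values, 6 moved beyond their counting interval in windows of 500 bp. Depth of the H3K4me1 lists is unknown, so that how far it limits gained and lost calls was not tested.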

Other observations

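In windows of 1 Mb, 969 of 2367 windows with a domain were covered over a greater length at W2 and 1388 over a smaller one, with a median change of -3.80 kb. The greatest increase was on chromosome 6 from 101000001 to 102000000, the window of Pdzrn3, with 38.6 kb at D0 and 275 kb at W2 and 23 gained domains. Next were chromosome 12 from 5000001 (Klhl29 and Atad2b, 44.4 to 216 kb) and chromosome 4 from 84000001 (Bnc2 and Cntln, 185 to 355 kb). The greatest decreases were on chromosome 7 from 115000001 (Sox6, 378 to 103 kb, 56 lost domains), chromosome 14 from 99000001 (Klf5 and Klf12 among others, 371 to 161 kb, 43 lost) and chromosome 2 from 9000001 (Gata3 and Taf3 among others, 429 to 243 kb, 34 lost).

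Some gained and some lost domains stood next to others of their set. Runs of 3 or more neighbouring domains of a list that all lacked a counterpart held 38.4% of gained and 38.2% of lost domains. Lost domains made up 32.4% of their list and gained ones 20.0%, and a larger share by itself gives more runs. The part of these shares in the runs was not tested, so that the 2 values cannot be compared as clustering. The longest run of gained domains had 34 members over 850.2 kb in Gpc6, and the longest run of lost domains 34 members over 515 kb at Cfap299. Runs of 17 gained domains were found over Cmah, over Dpyd and in a stretch of chromosome 8 without a protein-coding gene, one of 15 over Rnf150 and one of 14 over Nalcn, a sodium leak channel gene.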
